A study of Mus musculus with 10 samples.

Results

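The blood-brain barrier endothelial genes described here were 10 genes of brain endothelium, taken by symbol from the 24391 gene names in the count tables. Cldn5, Ocln and Tjp1 stand for the tight junction, Mfsd2a, Slc2a1, Abcb1a and Abcg2 for transport, Cdh5 and Pecam1 for endothelial identity, and Plvap for the leaky, fenestrated state. All 10 were found under exactly 1 name each, and all 10 passed the filter on low counts in every comparison. The rule went by symbol alone, but the genes were proposed with earlier results of these data known.

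RNA from the bilateral hippocampus of 10 male mice (C56BL/6J as the study spells the strain, 10 to 14 weeks old) was sequenced, 1 library per mouse. In the 4 SAH mice, subarachnoid haemorrhage, bleeding into the fluid space around the brain, was produced by puncturing the circle of Willis on one side with a filament, and only mice whose cerebral blood flow fell enough at puncture had been kept by the study. In the 3 Sham mice the filament was advanced without puncture, and the 3 Naive mice had no surgery. Tissue was taken 4 days after surgery, and Sham and Naive mice were pooled as 6 control mice, as the study did. Mice are numbered as the labels give them: SAH 1 to 4, Sham 5 to 7 and Naive 8 to 10.

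Endothelial cells of brain vessels are joined by tight junctions, carry few caveolae, and move nutrients in and drugs out through dedicated transporters. Together these properties form the blood-brain barrier, which keeps plasma proteins and many solutes out of the tissue. Pericytes, astrocyte endfeet and Wnt signalling from neural cells maintain it. In whole tissue, more endothelial cells and more RNA of a gene per endothelial cell cannot be told apart, and several members are also made by other cells: Tjp1 and Slc2a1, for example, are transcribed in neurons and astrocytes as well, and Abcb1a and Abcg2 are not strictly endothelial.

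Each library held 19743388 to 27254655 counts, and the members were covered by 159 (Plvap) to 4076 (Tjp1) counts per mouse. The Poisson counting error at the mean control count ran from 0.025 (Tjp1) to 0.10 (Plvap) on the log2 scale. It was about as large as the SD among control mice for Abcg2 (0.077 against 0.078) and Plvap (0.10 against 0.090), and smaller for the other 8 members. The summed level of 8 markers of hippocampal neurons lay between 7215 and 8376 CPM (counts relative to the TMM-scaled library size) in all mice. Camk2a and Slc17a7 made up most of it, with control means of 5498 and 1446 CPM. The other markers had control means of 21.5 (Zbtb20) to 289 CPM (Neurod6), so the sum says little about them and is no check of the tissue label. C1ql2 was the 1 marker of the 8 called between SAH and control mice (log2 fold change 0.34, adjusted p = 0.0727 by edgeR's test). Libraries did stand apart in markers of neighbouring structures. The 8 markers of choroid plexus epithelium (Ttr, Folr1, Kl, Clic6, Kcnj13, Otx2, Aqp1 and Slc4a5) summed to 1236 CPM in SAH 3, 867 in SAH 4 and 832 in Sham 7, against 44.3 to 217 in the other 7 mice. Over all genes, SAH 3 and SAH 4 also stood apart: the chi-square per degree of freedom between 2 libraries was 15.32 to 26.95 for SAH 3 with any other, 9.50 to 16.5 for SAH 4 with the mice other than SAH 3, and 3.62 to 9.84 among the remaining 8. Because of this, the comparison of SAH with pooled control mice was repeated without these 3 mice for the members and for the number of other barrier genes called. The comparisons with Sham or Naive alone and the marker lists were not.

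Cdh5, Abcb1a, Pecam1 and Abcg2 were higher in SAH than in control mice, by 1.79, 1.64, 1.63 and 1.17 fold. The other 6 members did not pass the test, and none was called lower. The fitted log2 fold changes were positive for 10 of 10 members, with a median of 0.47, against a median of -0.0024 over all 14993 genes tested. With edgeR's quasi-likelihood test and genes called at a Benjamini-Hochberg adjusted p under 0.10, 4 of 10 members were called higher, where 3.13% of all genes tested were called higher and 1.54% lower. The 4 SAH values did not overlap the 6 control values for 2 of 10 members, Cdh5 and Abcg2, both higher, which held for 2.83% of all genes tested. Without SAH 3, SAH 4 and Sham 7, Cdh5 was the 1 member still called, in a fit that kept 2 SAH mice and called 330 genes in all, against 701 with all mice.

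**Figure D1:**
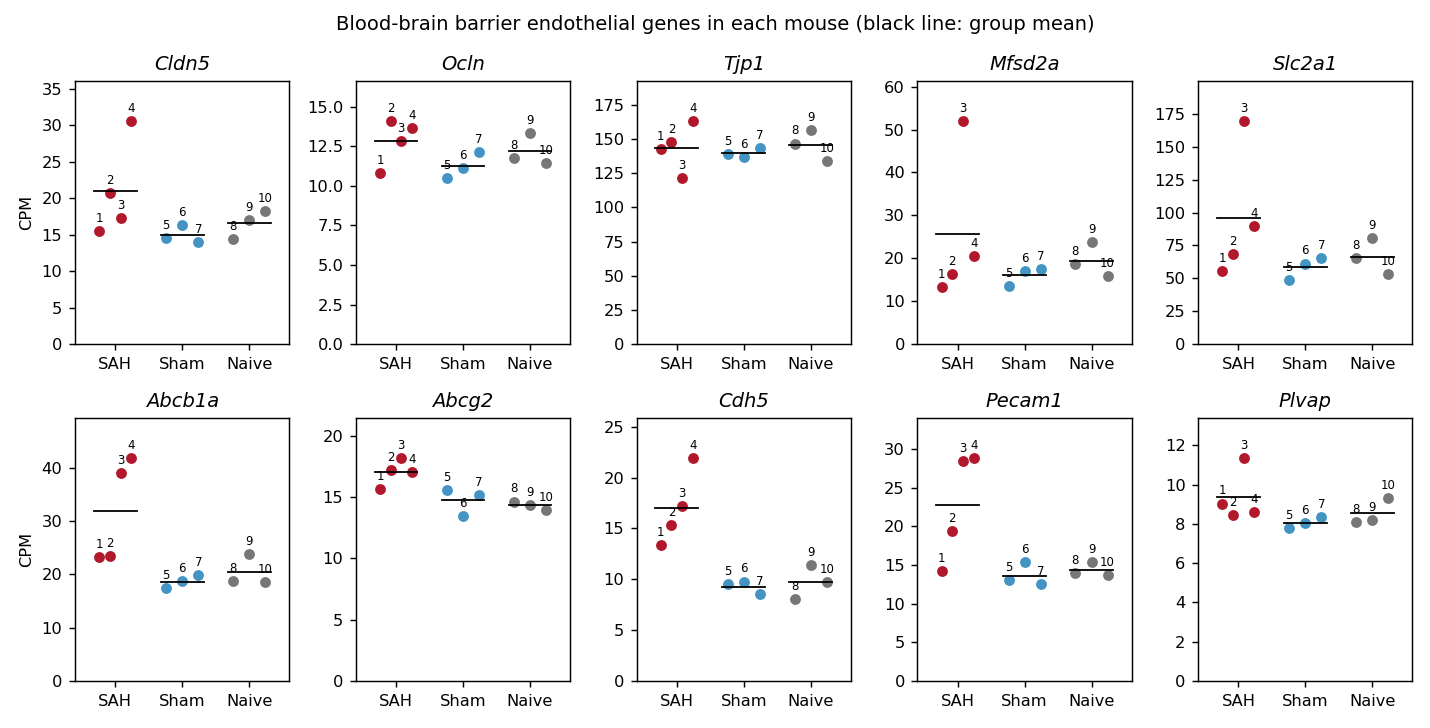
CPM (y axis, from 0) of each member in each mouse, by group; numbers name the mice and black lines are group means. The 4 SAH mice lie above all control mice for Cdh5 (13.4 to 21.9 against 8.05 to 11.4), whereas for Mfsd2a only SAH 3 (51.9) stands above the control range.

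None of the tight junction members passed the test. Cldn5 (chr16:18776940-18778355, plus strand, 1 exon, mm9), the main claudin of brain endothelium, was at 15.5, 20.7, 17.3 and 30.5 CPM in SAH 1 to 4. In the control mice it ranged from 14 to 18.3 CPM with a median of 15.4. SAH 2 and SAH 4 were above all control mice, and SAH 1 and SAH 3 were inside the control range. The log2 fold change of Cldn5 was 0.42 ± 0.15 (SE, adjusted p = 0.179), and it was 0.19 without SAH 4. Without SAH 1 it was 0.54 and was called (adjusted p = 0.0639).

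Ocln (chr13:101267322-101322453, minus strand, 9 exons), the tetraspan protein occludin of the junction strand, was at 10.8, 14.1, 12.8 and 13.6 CPM in SAH 1 to 4 and at 10.5 to 13.3 CPM in control mice (median 11.6). The groups overlapped, with a log2 fold change of 0.14 ± 0.088 (SE, adjusted p = 0.450). Tjp1 (chr7:72441051-72516130, minus strand, 29 exons) encodes the scaffold ZO-1 that ties claudins and occludin to actin. It was at 143, 148, 121 and 163 CPM in SAH 1 to 4 and at 134 to 157 CPM in control mice (median 141). SAH mice therefore held both the lowest and the highest Tjp1 value of the series, and the log2 fold change was 0.011 ± 0.068 (SE, adjusted p = 0.955). Its sign changed when any of 4 single mice was left out.

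Of the transport members, the efflux pumps Abcb1a and Abcg2 passed the test and the nutrient carriers Slc2a1 and Mfsd2a did not. Pumps and carriers were not compared with each other. The fitted log2 fold changes of Slc2a1 (0.62) and Mfsd2a (0.52) were larger than that of Abcg2 (0.23). Abcb1a (chr5:8660092-8748570, plus strand, 28 exons) encodes P-glycoprotein, which exports drugs and other lipophilic compounds to the blood. It was at 23.2, 23.4, 39.0 and 41.8 CPM in SAH 1 to 4, and at 17.4 to 23.7 CPM in control mice (median 18.7). SAH 3 and SAH 4 stood far above the control range, and SAH 1 and SAH 2 lay at its upper end, below Naive 9. Abcb1a differed by a log2 fold change of 0.71 ± 0.16 (SE, adjusted p = 0.0294). It was no longer called without SAH 4 (0.55, adjusted p = 0.124), nor without SAH 3, SAH 4 and Sham 7 together (0.27, adjusted p = 0.273).

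Of the 50-base windows in annotated Abcb1a transcripts, 17.0% also occur in those of its near copy Abcb1b, and read pairs confined to such stretches cannot be assigned to either. None of the other 9 members shared a 50-base window with a protein-coding transcript of another gene, and other kinds of transcript were not searched. Abcb1b itself was at 5.32 ± 0.548 CPM in SAH and 4.43 ± 0.517 CPM in control mice (SD, n = 4 and 6), with an adjusted p of 0.260.

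Abcg2 (chr6:58546666-58642445, plus strand, 16 exons), the efflux pump BCRP, was at 15.7, 17.2, 18.2 and 17.1 CPM in SAH 1 to 4. Control mice held 13.4 to 15.6 CPM, with a median of 14.5. The groups did not overlap, but SAH 1 and Sham 5 were nearly equal. The log2 fold change was the smallest of the called members, 0.23 ± 0.064 (SE, adjusted p = 0.0792), and Abcg2 was called in 3 of the 10 fits that left out 1 mouse. It was also not called without the filter on low counts (adjusted p = 0.104) or with Sham and Naive averaged in a fit of 3 groups (adjusted p = 0.103). Without SAH 3, SAH 4 and Sham 7 its fold change stayed at 0.20 but was not called (adjusted p = 0.364).

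Slc2a1 (chr4:118781350-118809934, plus strand, 10 exons) encodes the glucose carrier GLUT1. Its level was 55.8, 68.6, 169 and 89.7 CPM in SAH 1 to 4 and 48.5 to 80.6 CPM in control mice (median 63.3). Mfsd2a (chr4:122624094-122638431, minus strand, 14 exons) encodes the carrier of lysophospholipids with omega-3 chains, which also restrains transcytosis. Its level was 13.4, 16.3, 51.9 and 20.6 CPM in SAH 1 to 4 and 13.7 to 23.7 CPM in control mice (median 17.3). Both carriers were highest in SAH 3, and SAH 1 and SAH 2 were within or below the control range for both.

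The log2 fold change was 0.62 ± 0.24 for Slc2a1 (SE, adjusted p = 0.211) and 0.52 ± 0.30 for Mfsd2a (SE, adjusted p = 0.407). Without SAH 3 the values were 0.20 and -0.068, so the sign of Mfsd2a rested on 1 mouse. Without SAH 3, SAH 4 and Sham 7 they were 0.019 and -0.24. Without SAH 1, Slc2a1 was at 0.80 and was called (adjusted p = 0.0699).

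Slc2a1 and Mfsd2a followed each other more closely than any other pair of members. After removal of the group means from log2 CPM, Pearson's r was 0.989 and Spearman's rho 0.988 over the 10 mice, and r was 0.996 over the 9 mice without SAH 3. Naive 9 was the highest control mouse and Sham 5 the lowest for both. Over the 45 pairs of members r ran from -0.87 (Tjp1 and Plvap) to 0.99, with a median of 0.41, and 35 were positive. Without SAH 3 the range was -0.62 to 1.00, the median 0.58 and the number of positive pairs 36. Single pairs moved more: Tjp1 with Mfsd2a went from -0.47 to 0.89, and Mfsd2a with Plvap from 0.70 to -0.44. These are descriptions, since all genes of a mouse share its library, depth and cell makeup.

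Because these carriers moved together, their promoters are shown, read from RefSeq on build GRCm38.p6, which differs from the mm9 build of the counts. Each window runs 5′ to 3′ from 250 bases before to 50 bases after the start of transcription. Capitals mark ACGTG, the core of the hypoxia response element, searched on both strands, and Abcb1a is shown as a called member of the same transport group. ACGTG was chosen after the sequences were seen, and it overlaps the E-box CACGTG.
Slc2a1: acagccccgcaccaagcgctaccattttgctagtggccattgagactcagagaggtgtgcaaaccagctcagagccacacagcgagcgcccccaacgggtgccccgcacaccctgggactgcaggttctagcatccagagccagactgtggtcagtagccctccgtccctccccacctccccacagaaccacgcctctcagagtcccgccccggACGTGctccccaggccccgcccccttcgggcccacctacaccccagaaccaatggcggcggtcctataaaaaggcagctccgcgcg
Mfsd2a: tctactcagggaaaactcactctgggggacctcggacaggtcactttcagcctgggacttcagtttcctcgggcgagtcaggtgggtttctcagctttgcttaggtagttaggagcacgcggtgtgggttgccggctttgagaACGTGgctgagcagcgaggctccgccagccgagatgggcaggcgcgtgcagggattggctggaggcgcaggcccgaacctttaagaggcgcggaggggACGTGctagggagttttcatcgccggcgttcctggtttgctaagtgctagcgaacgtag
Abcb1a: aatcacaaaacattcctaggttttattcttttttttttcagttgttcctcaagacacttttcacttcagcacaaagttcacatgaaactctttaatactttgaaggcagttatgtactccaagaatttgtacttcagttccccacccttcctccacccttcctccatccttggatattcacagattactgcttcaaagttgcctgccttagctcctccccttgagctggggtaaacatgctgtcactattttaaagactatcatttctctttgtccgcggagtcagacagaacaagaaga

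The Slc2a1 window (chr4:119108495-119108794, plus strand) held 1 match, the Mfsd2a window (chr4:122961139-122961438, minus strand) held 2, and the Abcb1a window (chr5:8566841-8567140, plus strand) held 0. Of all 32851 RefSeq promoter windows of this length, 19.6% held at least 1 match. RefSeq windows were found for 7 of 10 members, and ACGTG occurred in those of 3 of them, Tjp1 being the other. The ETS core GGAAG, also searched on both strands, occurred in 71.4% of all windows and in those of 4 of the 7 members, Abcb1a among them. Abcb1a, with 0 matches, also followed Slc2a1 (r = 0.79) and Mfsd2a (r = 0.73) over the 10 mice. For Tjp1, with 1 match, r was -0.34 with Slc2a1 and -0.47 with Mfsd2a, and 0.89 with both without SAH 3. A relation between matches and levels was not tested. A match is a run of letters and not a measured binding site.

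Both identity members passed the test. Cdh5 (chr8:106625525-106668402, plus strand, 12 exons) encodes VE-cadherin, the adhesion molecule of endothelial adherens junctions. It was at 13.4, 15.4, 17.2 and 21.9 CPM in SAH 1 to 4, at 9.49, 9.78 and 8.57 CPM in Sham 5 to 7 and at 8.05, 11.4 and 9.76 CPM in Naive 8 to 10. All 4 SAH mice lay above all 6 control mice. The log2 fold change was 0.84 ± 0.13 (SE, adjusted p = 0.00385), which ranked 49 by p among all genes tested. Cdh5 stayed called in all 10 fits that left out 1 mouse (log2 fold changes 0.69 to 0.94) and without SAH 3, SAH 4 and Sham 7 together (0.58, adjusted p = 0.0132).

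Pecam1 (chr11:106515527-106576595, minus strand, 16 exons) encodes CD31, which is also carried by platelets and leukocytes. It was at 14.2, 19.3, 28.4 and 28.9 CPM in SAH 1 to 4 and at 12.5 to 15.3 CPM in control mice (median 13.8). SAH 2, SAH 3 and SAH 4 were above all control mice, and SAH 1 was inside their range. This gave a log2 fold change of 0.70 ± 0.16 (SE, adjusted p = 0.0331). It fell below the threshold without SAH 4 (0.56, adjusted p = 0.137) and without SAH 3, SAH 4 and Sham 7 (0.25, adjusted p = 0.428).

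Plvap (chr8:74021652-74035668, minus strand, 6 exons) encodes the diaphragm protein of fenestrae and caveolae, which mature barrier endothelium lacks and which choroid plexus capillaries carry. It was at 9.04, 8.46, 11.4 and 8.59 CPM in SAH 1 to 4 and at 7.80 to 9.34 CPM in control mice (median 8.13). Only SAH 3 exceeded the control range. This mouse had the highest choroid plexus markers, but SAH 4, with 867 CPM of these markers, was at 8.59 CPM of Plvap. Sham 7, with 832 CPM of the markers, was at 8.37 CPM of Plvap. The highest control value of Plvap was that of Naive 10, which had 53.3 CPM of the markers. A relation between the 2 was not tested. The log2 fold change was 0.17 ± 0.095 (SE, adjusted p = 0.392), and 0.068 without SAH 3.

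**Figure D2:**
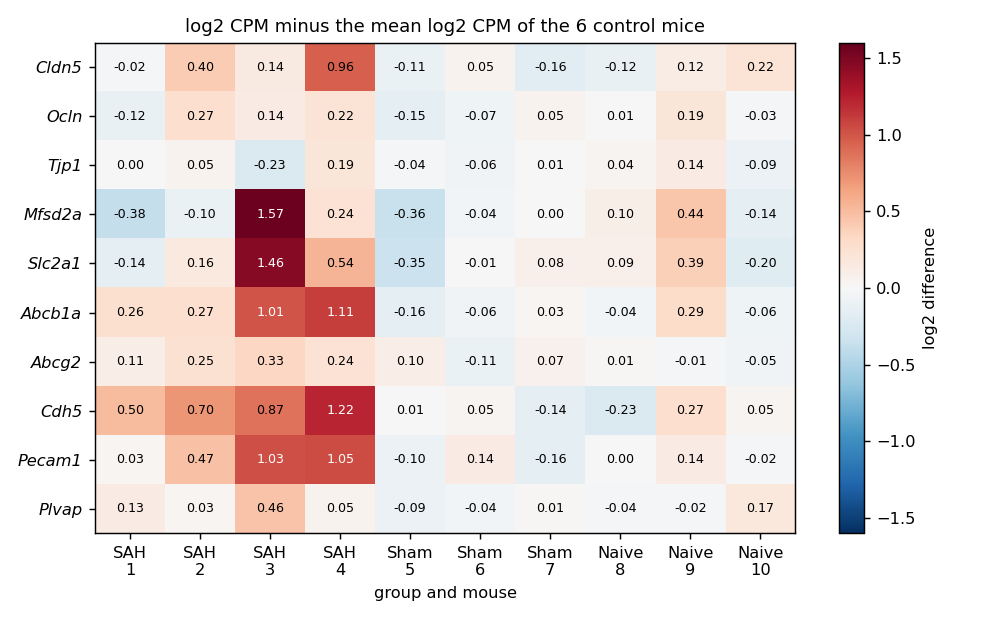
Each cell gives the log2 CPM of a member (rows) in a mouse (columns) minus its mean over the 6 control mice; red is above and blue below that mean. The highest values are those of Mfsd2a (1.57) and Slc2a1 (1.46) in SAH 3 and of Cdh5 (1.22) in SAH 4, while Tjp1 in SAH 3 is at -0.23.

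The SD of log2 CPM was larger in SAH than in control mice for 10 of 10 members and for 68.7% of all genes tested. The members' values were, for example, 0.86 against 0.26 for Mfsd2a, 0.70 against 0.25 for Slc2a1 and 0.49 against 0.12 for Pecam1. For Abcg2 it was nearly the same, 0.089 against 0.078. No test was made of these spreads.

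Per kilobase of annotated exon, the mean control level was highest for Slc2a1 (24.3 ± 4.33 CPM per kb, SD, n = 6) and Tjp1 (20.1 ± 1.16). Then came Cldn5 (11.1 ± 1.21), Mfsd2a (8.25 ± 1.58), Abcg2 (5.83 ± 0.314), Pecam1 (4.19 ± 0.348), Plvap (4.12 ± 0.268), Abcb1a (3.91 ± 0.444), Ocln (3.67 ± 0.300) and Cdh5 (2.39 ± 0.292). Read by overlap of mean ± SD, Slc2a1 and Tjp1 did not differ beyond their spread, nor did Pecam1, Plvap, Abcb1a and Ocln in their neighbouring pairs. The member that rose most, Cdh5, thus had the lowest level per kilobase in control mice.

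Sham and Naive mice were then used as separate controls. The comparisons of SAH with Sham and of SAH with Naive share the SAH mice, and each shares its controls with the pooled comparison. Cdh5 was the 1 member called in either: its log2 fold change was 0.87 ± 0.16 against Sham (SE, adjusted p = 0.0492) and 0.81 ± 0.16 against Naive (SE, adjusted p = 0.0255). Higher calls made up 0.529% and 2.03% of the 15134 genes tested. Against Sham the Cdh5 call was lost when SAH 4 or any of Sham 5, Sham 6 and Sham 7 was left out, and in a fit to only the mice compared. Its log2 fold change was 0.72 to 0.91 in those 5 fits (adjusted p = 0.109 to 0.205), which called 6 to 18 genes in all, against 109. Against Naive it was lost when Naive 8 was left out (0.69, adjusted p = 0.157). DESeq2 called 3 members in each, adding Abcb1a and Pecam1, and it called more genes in all, 302 against 109 for Sham and 744 against 453 for Naive.

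Abcb1a was 0.77 ± 0.20 higher than in Sham and 0.65 ± 0.20 higher than in Naive mice on the log2 scale (SE, adjusted p = 0.145 and 0.138). The values of Pecam1 were 0.73 ± 0.20 and 0.67 ± 0.20 (SE, adjusted p = 0.184 and 0.136), and those of Abcg2 0.21 ± 0.080 and 0.25 ± 0.080 (SE, adjusted p = 0.396 and 0.161). None of these 3 passed the threshold against either group alone. Tjp1 was at 0.039 against Sham and -0.019 against Naive, and the other members were positive in both. Every SAH mouse lay above every Sham mouse for 4 members (Cdh5, Abcb1a, Abcg2 and Plvap), where 5.03% of all genes did, and above every Naive mouse for 2 (Cdh5 and Abcg2), where 7.04% did.

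No member was called between Sham and Naive mice, with 0 of 10 at an unadjusted p under 0.05 and 0 called by DESeq2. Of all 15134 genes tested only 305 had an unadjusted p under 0.05, so 0 of 10 is near the background. Over all genes 0.00661% were called. The fitted log2 differences, Sham over Naive, ran from -0.27 (Mfsd2a) to 0.038 (Abcg2) and were negative for all members but Abcg2.

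**Figure D3:**
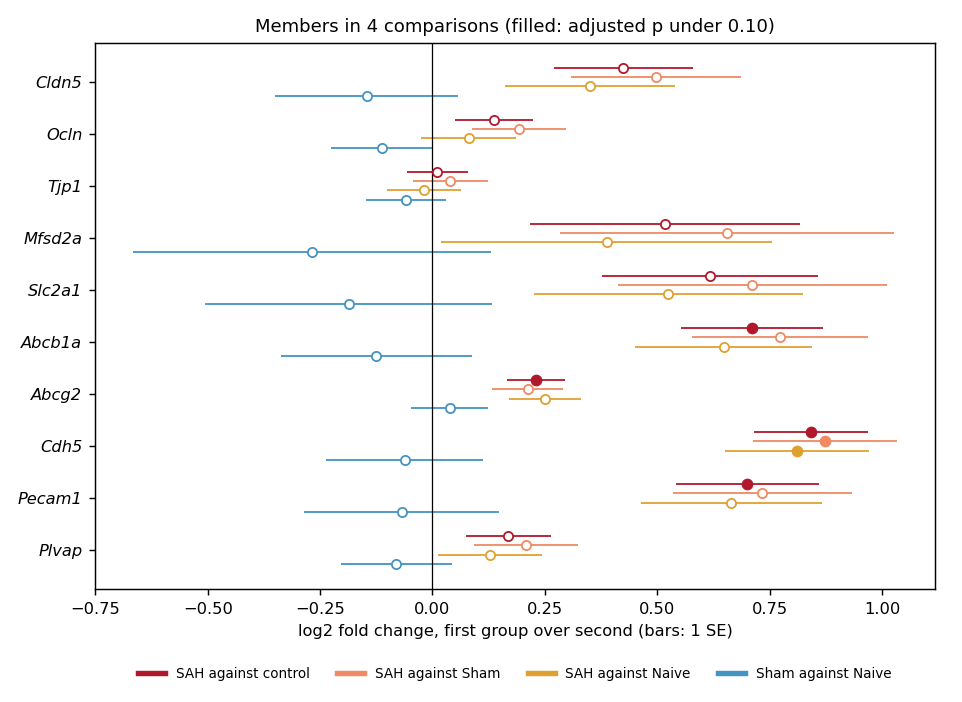
Log2 fold change (x axis) of each member (rows) in 4 comparisons, first group over second, with bars of 1 SE; filled points passed an adjusted p under 0.10. Cdh5 is filled in all 3 comparisons with SAH mice, and no point is filled for Sham against Naive.

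The wider barrier programme was followed in 6 lists of 74 other genes, none of them a member. Of these, 70 were tested, 16 were called higher in SAH than in control mice and 0 lower, and the median log2 fold change was 0.24, with 56 positive. Read against the 3.13% of all genes called higher, 1 call in a list of 15 or 16 genes is near the background. Genes of endothelial identity made up most of the calls, with 9 of 19 called higher and a median of 0.62. Vwf, the clotting factor stored by endothelium, was at 23.1 ± 7.46 CPM in SAH and 8.63 ± 2.10 CPM in control mice (SD, n = 4 and 6), a log2 fold change of 1.43. Sox17, a transcription factor of arterial endothelium, rose by 1.20, the VEGF receptor Flt1 by 0.79, the adhesion receptor Adgrl4 by 0.74 and the phosphatase Ptprb by 0.71. The other 4 called were Adgrf5, Eng, Tie1 and Cd34.

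The other lists held fewer calls. Of 9 tight junction genes tested 2 were called, the cingulin relative Cgnl1 (0.59 on the log2 scale) and the tricellular junction protein Lsr (0.79), and the list's median was 0.047. Of 15 transporters 1 was called, the organic anion carrier Slc22a8 (0.65), with a median of 0.19. Of 5 caveolar genes 1 was called, Ptrf, the older symbol of the coat protein gene Cavin1, which went from 13.7 ± 1.14 CPM in control to 22.6 ± 1.70 CPM in SAH mice (0.72). Of 16 genes of Wnt barrier signalling 1 was called, Reck (0.50), a co-receptor for Wnt7 ligands, with a median of 0.14. Of 6 genes of endothelial activation tested 2 were called, the vessel-destabilising ligand Angpt2 (1.16) and the leukocyte adhesion molecule Icam1 (0.80). Without SAH 3, SAH 4 and Sham 7, 7 of these other barrier genes were called, and the same number without SAH 4 alone.

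**Figure D4:**
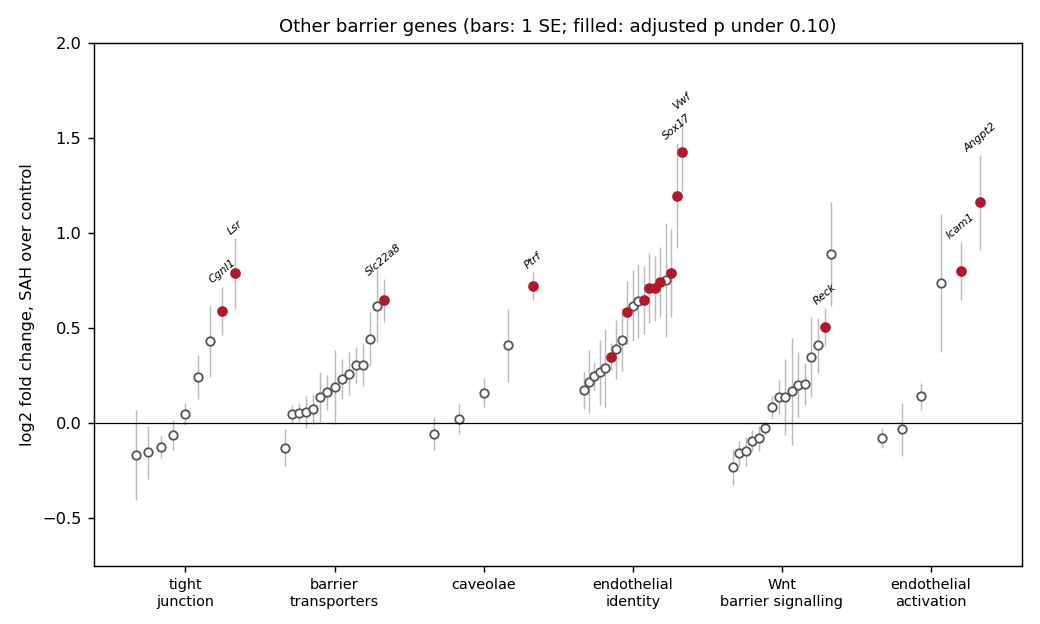
Log2 fold change of SAH over control (y axis) for the 70 tested genes of 6 barrier lists, ordered by value within each list, with bars of 1 SE; filled red points passed an adjusted p under 0.10. Calls are most frequent in the endothelial identity list (9 of 19, of which Vwf and Sox17 are named), and the tight junction list is spread around 0.

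The levels of members were set against the endothelium as a whole by subtracting the mean log2 CPM of the 19 identity genes in each mouse, a step chosen after the values had been seen and given without a test. On this scale Cdh5 was 0.36 ± 0.11 in SAH and 0.080 ± 0.080 in control mice (SD, n = 4 and 6), without overlap between the groups, a separation upward that held for 0.167% of all genes tested. Pecam1 and Abcb1a differed by 0.11 and 0.12, and their groups overlapped. Tjp1, Ocln, Plvap and Abcg2 were lower relative to the list by 0.53, 0.41, 0.37 and 0.31, and Cldn5, Mfsd2a and Slc2a1 by 0.16, 0.21 and 0.033, all with overlapping groups. The list mean itself was 3.30, 3.51, 3.88 and 4.15 in SAH 1 to 4 and 3.01 to 3.47 in control mice. A gene with an unchanged level therefore falls on this scale, as did Tjp1, whose log2 fold change was 0.011. These lower values do not measure a loss per endothelial cell. Every SAH mouse lay below every control mouse on this scale for 0 of 10 members and for 11.3% of all genes tested. With the same identity score as a covariate in the edgeR fit, no member was called, and 52 genes were called in all, against 701. The fitted difference of Cdh5 was then 0.39 on the log2 scale (adjusted p = 0.274), that of Cldn5 -0.055 and that of Mfsd2a -0.28. Abcg2 stayed at 0.20 (adjusted p = 0.900), while Abcb1a was at 0.094 and Pecam1 at 0.090.

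Markers of other cells moved with some of these values. The 19 identity genes summed to 296, 324, 452 and 505 CPM in SAH 1 to 4 and to 236 to 324 CPM in control mice, highest in Naive 9. All 8 choroid plexus markers had positive log2 fold changes, 0 of 8 was called, and their sum was 102 to 1236 CPM in SAH and 44.3 to 832 CPM in control mice. SAH 3 and SAH 4, which had the highest choroid plexus sums, also had the highest Abcb1a, Pecam1 and Slc2a1. Sham 7, at 832 CPM of choroid plexus markers, was within the range of the other control mice for Abcb1a, Slc2a1 and Mfsd2a and was the lowest of all mice for Pecam1. Once the fit held a choroid plexus score, Cdh5 (0.79, adjusted p = 0.0438) was the 1 member called. Abcb1a was then at 0.51 and Pecam1 at 0.52 (adjusted p = 0.438 and 0.475), Abcg2 was at 0.16 (adjusted p = 0.650), Slc2a1 at 0.28 and Mfsd2a at 0.12 (adjusted p = 0.958 and 0.988), and 160 genes were called in all.

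Of 8 meningeal fibroblast markers 6 were called higher, among them Col1a2 (1.21) and Lum (1.13), and their sum was 99.1 to 181 CPM in SAH and 91.4 to 125 CPM in control mice. This sum was highest in SAH 1 and SAH 2 and lowest among SAH mice in SAH 3, the mouse with the highest Mfsd2a and Slc2a1. With the meningeal score as a covariate, 6 members were called, Mfsd2a (1.46) and Slc2a1 (1.39) being the added ones, and 1926 genes were called in all, against 701. Of 9 mural cell markers 4 were called, the contractile genes Tagln (0.94), Myh11 (0.90) and Acta2 (0.78) and the pericyte gene Vtn (0.53), with a sum of 187 to 255 CPM in SAH and 137 to 173 CPM in control mice. The other 5, Anpep (0.51), Abcc9 (0.37), Rgs5 (0.21), Pdgfrb (0.19) and Kcnj8 (-0.042), did not pass.

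Astrocyte markers summed to 5663 to 6505 CPM in SAH and 5811 to 6254 CPM in control mice, with 0 of 8 called. Microglial markers summed to 396 to 481 CPM in SAH and 369 to 414 CPM in control mice, with 3 of 8 called higher, Trem2 (0.35) and Csf1r (0.29) among them. P2ry12 (-0.046), Cx3cr1 (-0.062), Sall1 (-0.087), Tmem119 (0.084) and Aif1 (0.23) did not pass. Of 11 blood cell markers 3 could be tested and 1 was called, the platelet gene Pf4 (1.16). The other platelet gene tested, Itga2b, was at -0.028 (adjusted p = 0.959), and the erythroid gene Alas2 at 0.36 (adjusted p = 0.546). The 4 globin genes were at 0 counts in all mice, which cannot be read as absence of red-cell RNA. The counts exclude pairs that aligned to several places or overlapped several genes, and whether this removed globin pairs was not tested. The sum of the blood markers, to which the globin genes add nothing, was 4.21 to 6.84 CPM in SAH and 2.97 to 4.78 CPM in control mice. The part of choroid plexus, meninges, larger vessels or blood in the members' differences was not tested beyond these fits.

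**Figure D5:**
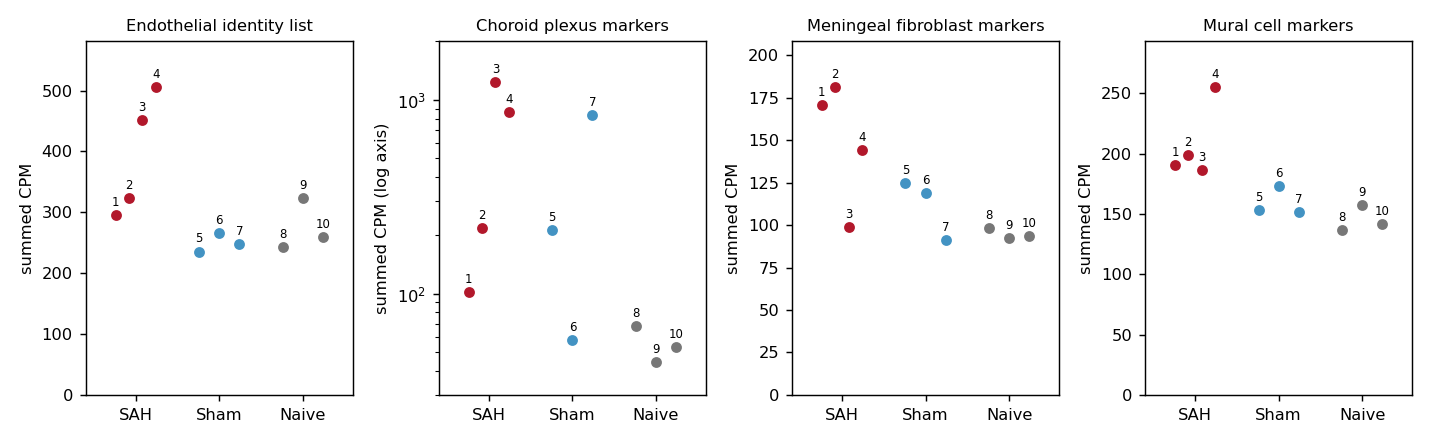
Summed CPM (y axis) of the 19 endothelial identity genes and of 3 marker lists in each mouse, by group; numbers name the mice, and the choroid plexus axis is logarithmic. SAH 3 and SAH 4 are highest for the identity genes, Sham 7 has high choroid plexus markers (832 CPM) without high identity genes, and SAH 3 has the lowest meningeal sum of the SAH mice (99.1 CPM).

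The genes whose group-centred log2 CPM was most like that of Cldn5 over the 10 mice were Gm5124 (r = 0.980, rho = 0.964), Umps (r = 0.966, rho = 0.988), Parp2 (r = 0.958, rho = 0.952), Fam173b (r = 0.948, rho = 0.818) and 2500002B13Rik (r = 0.944, rho = 0.903). For Plvap they were Cct2 (r = 0.989, rho = 0.976), Id2 (r = 0.977, rho = 0.903), Uvrag (r = 0.975, rho = 0.927), Aldh6a1 (r = 0.972, rho = 0.879) and Mrpl50 (r = 0.969, rho = 0.915). None of these 10 genes is in the lists of barrier genes, and they are the extremes of a search over all genes tested.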

How the data were processed

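The authors aligned 50-base read pairs from ribosome-depleted, stranded libraries to mm9 with STAR, merged lanes, and counted exon fragments by gene name with featureCounts 1.6.2 (reverse strand). Their counts exclude pairs that aligned to several places or overlapped several genes. The deposited values are raw counts. Per the labels, GRCh38 is also listed among the builds, but the file headers name mm9, and 92.9% of the members' 141 exons equal an exon of the mm9 GENCODE annotation.

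CPM and log2 CPM (prior count 2) were computed here with TMM factors. edgeR 4.0.16 (R 4.3.3) quasi-likelihood fits to all genes passing filterByExpr (minimum count 10, total 15) gave p-values, Benjamini-Hochberg adjusted over all genes tested; genes were called under 0.10. SAH against control used 2 groups, and the other comparisons 1 fit of 3 groups. DESeq2 1.42.0 and other alternatives were also run. Scripts were tested on simulated data. Replicates are separate mice.

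All members were named. From each other barrier list up to 5 called genes with the greatest log2 fold changes were given with values, and from marker lists the range; marker genes named singly were picked after their values were seen. Members and lists were chosen with earlier results of these data known. Libraries were not duplicates (chi-square per degree of freedom at least 3.62 for every pair). Animal numbers differ between groups and pair no mice.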

Additional observations from a re-analysis of the deposited data

Results flagged for a closer look

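Of 20 sets of values tested, each a member's CPM in the 4 SAH mice or the 6 control mice, 1 held a mouse far from the others, where chance alone gives about 1 in 20. Plvap was at 9.34 CPM in Naive 10, and its gap to the next control mouse was 0.631 of the control range, just above the critical value of 0.625 (Dixon's test). The next highest control value was 8.37 CPM in Sham 7. Mfsd2a and Slc2a1 in SAH 3, at 51.9 and 169 CPM, were not past the limit that applies to 4 mice.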

How the results depend on the processing

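Against pooled controls 4 members were called. The count was 0 with the endothelial identity score as covariate, 1 with the choroid plexus score, 1 when SAH 3, SAH 4 and Sham 7 were left out together (chosen after the data were seen) and 1 to 6 when single mice were left out, lowest without SAH 4, while calls over all genes went from 701 to 52, 160, 330 and 308 to 1093. The count of 1 against Sham was 3 with DESeq2, 2 without a filter, 0 with only the mice compared and 0 to 3 with single mice left out, while calls over all genes went from 109 to 302, 182, 12 and 6 to 215. The count of 1 against Naive was 3 with DESeq2, 3 without a filter and 0 to 3 with single mice left out, while calls over all genes went from 453 to 744, 517 and 109 to 683. Between Sham and Naive it was 0 throughout. The 16 other barrier genes called became 7 without the 3 mice and 7 to 26 with single mice left out. Of these counts under alternatives 73 stayed within 1.5 times the reported count and 22 did not.

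The sign of a log2 fold change turned with the identity covariate for Cldn5 (-0.055), Ocln (-0.022), Tjp1 (-0.060), Mfsd2a (-0.28) and Slc2a1 (-0.087), with the meningeal covariate for Tjp1 (-0.039), and without the 3 mice for Mfsd2a (-0.24). With single mice left out, Tjp1 ranged from -0.055 to 0.085 and Mfsd2a from -0.068 to 0.72. None of the members turned from higher to lower while called. Abcg2 lost its call without the filter (adjusted p = 0.104) and with Sham and Naive averaged (adjusted p = 0.103). The causes were not tested. No paired analysis was possible because the groups share no animal number. With 3 or 4 mice a group, small changes such as that of Abcg2 lie near the limit of the test. Pooling Sham with Naive mice treats them as 1 group.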
